A study of Danio rerio with 6 samples.

Results

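In sorted thrombocytes of zebrafish larvae, 114 of 32520 genes had far more reads in miR-150 replicates 2 and 3 than in any other library. Of the 110 that can be named, 51 are known from the eye lens. These 51 held 94.5% and 94.3% of the set's counts in miR-150 replicates 2 and 3. The 114 genes were chosen by their CPM, the read count of a gene per 1000000 counts of its library: the smaller CPM of miR-150 replicates 2 and 3 had to be at least 5 and at least 8 times the largest CPM of miR-150 replicate 1 and control replicates 1, 2 and 3. The difference between those libraries is therefore fixed by the choice, and is described here without a test. A table pairing Ensembl identifiers with symbols named 110 of the 114 genes, and 4 have an identifier only. Where a zebrafish gene carries a human symbol in that table, it is printed in capitals, and copies that share a symbol are told apart by identifier.

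The study sequenced RNA of thrombocytes, the nucleated blood cells that do the work of platelets in fish, from larvae at 5 days post fertilization. The 3 miR-150 libraries came from larvae with the transgenes (-6.0itga2b:miR-150-tagRFP) and (-6.0itga2b:EGFP), in which the promoter of the thrombocyte gene itga2b drives miR-150 with the red protein tagRFP. The 3 control libraries came from larvae with (-6.0itga2b:tagRFP) and (-6.0itga2b:EGFP), which lack the microRNA transgene. All larvae carried the green itga2b reporter, all were raised with the pigment blocker PTU, and cells with both colours were sorted. How many larvae went into a library is not given in the sources used here, nor whether replicates came from separate clutches.

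The vertebrate lens is built of elongated fibre cells that fill with crystallins, soluble proteins packed at high concentration to bend light. As they mature, fibre cells lose their nuclei and organelles, and they stay linked through gap junctions and the water channel MIP. A layer of epithelial cells at the front of the lens divides and adds new fibres.

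Totals ran from 12972258 to 22150519 counts per library. Thrombocyte genes were read in every library: itga2b itself stood at 4002 and 1052 CPM in miR-150 replicates 2 and 3, at 5384 CPM in miR-150 replicate 1, and at 5727, 4194 and 4002 CPM in control replicates 1, 2 and 3. The 25 matched genes of a thrombocyte marker list summed to 18131 and 5249 CPM in miR-150 replicates 2 and 3, against 21470.2 CPM in miR-150 replicate 1 and 20969 to 25257 CPM in the controls. When the 114 genes were left out of the total, the sums were 22079 in replicate 2 on the CPM scale of the remaining counts, within the range of the other 4 libraries, and 7150 in replicate 3, below all of them. In bulk RNA, fewer cells of a type and less RNA per cell cannot be told apart.

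The 114 genes held 17.9% of all counts in miR-150 replicate 2 and 26.6% in miR-150 replicate 3 (exact Clopper-Pearson 95% intervals 17.86% to 17.89% and 26.57% to 26.61%, for counting error only). Their share was 0.276% for miR-150 replicate 1, against 0.0546%, 0.237% and 0.0442% for the controls in order of replicate number. All 114 had reads in the 2 high libraries by the rule. In miR-150 replicate 1, 19 of them had 0 counts, and in control replicates 1, 2 and 3 the number at 0 was 49, 39 and 47. The 10 genes with the highest smaller CPM of replicates 2 and 3 made up 72.7% and 77.6% of the set's counts in these libraries. Of the 114, 23 reached 1000 CPM in both high libraries, 62 reached 100 CPM in both, and 16 stayed under 20 CPM in at least one. CPM values are not divided by transcript length, so they order genes by reads and not by molecules.

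**Figure D1:**
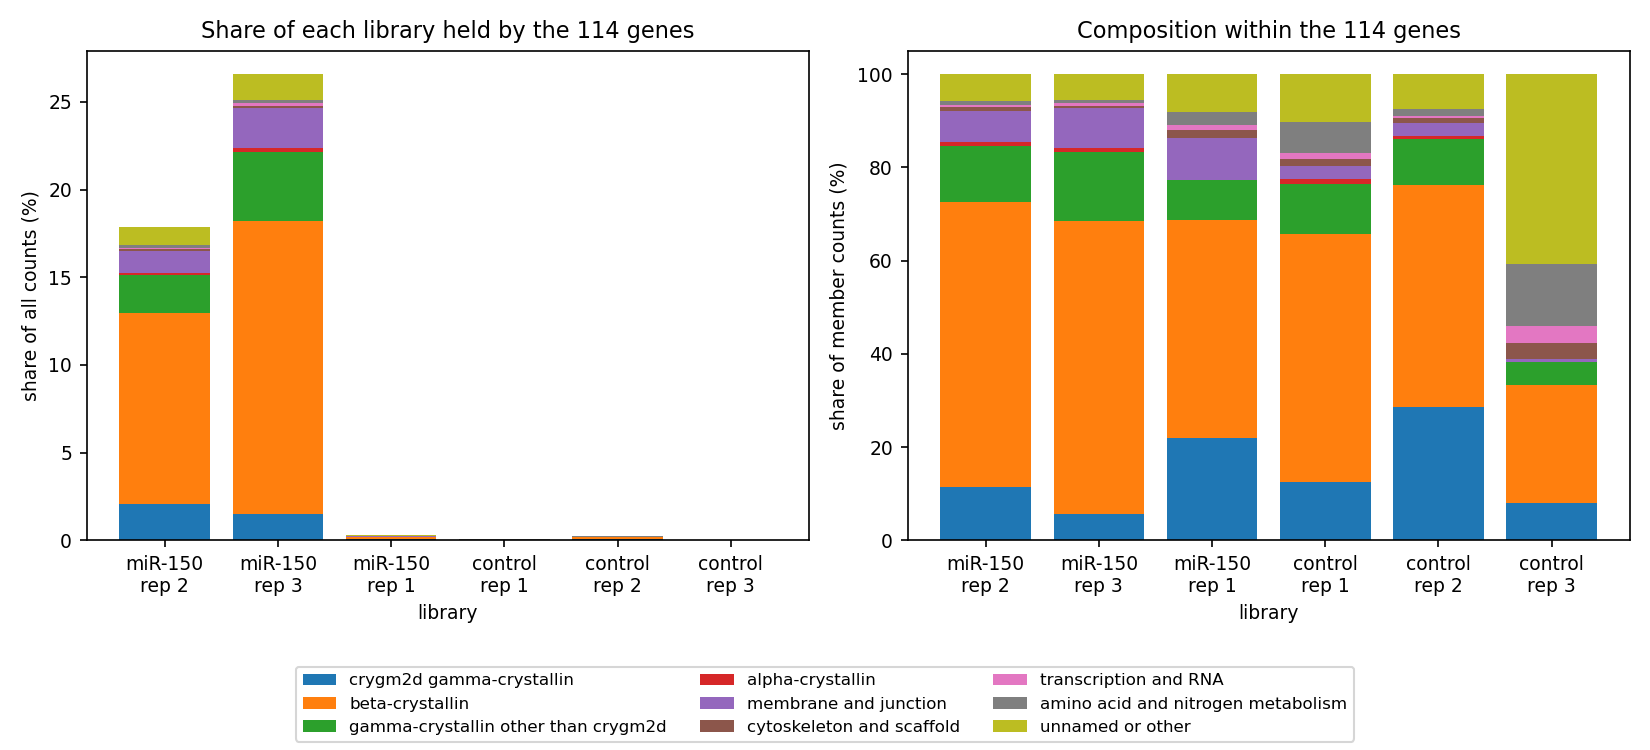
Left, share of all counts (%) held by the 114 genes in each of the 6 libraries, stacked by role; right, the same counts as shares of the set's own total (%). The bars on the left reach 17.9% and 26.6% in miR-150 replicates 2 and 3 and stay at or below 0.276% elsewhere; on the right, crygm2d genes make up 5.59% to 28.6% of the set.

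Crystallins were the core of the set. They numbered 33 of the 114 genes and took 85.3% and 84.1% of its counts in miR-150 replicates 2 and 3, and adding 18 further genes known from the lens, named below, brought this to 94.5% and 94.3%. In miR-150 replicate 1 the 33 crystallins took 77.4% of the set's counts. The controls, by replicate number, had crystallin parts of 77.6%, 86.7% and 38.2%.

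The 11 beta-crystallins, structural proteins of the lens that assemble into dimers and larger complexes, held the most reads. The gene crybb1l1 had 29646 and 33448 CPM in miR-150 replicates 2 and 3, 231 CPM in miR-150 replicate 1, and 65.8, 245 and 29.1 CPM in control replicates 1, 2 and 3. For cryba1b the values were 18578 and 26309 CPM in miR-150 replicates 2 and 3, against 232 CPM in miR-150 replicate 1 and 48.3, 221 and 19.0 CPM in the controls. CRYBB1 had 17079 and 30578 CPM in the 2 high libraries, 231 CPM in miR-150 replicate 1, and 43.4, 197 and 9.81 CPM in the controls. All 3 genes had one order of libraries: replicate 3 highest, then replicate 2, then a wide gap to miR-150 replicate 1 and control replicate 2, with control replicates 1 and 3 lowest.

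The genes cryba1l1, CRYBA4 and both copies of CRYBA2, lay between 3687 and 16164 CPM in replicate 2 and between 5566 and 26411 CPM in replicate 3. The remaining beta-crystallins in the set were crybb1l2, cryba1l2, CRYBA1 and crybb1l3, the last at 166 and 195 CPM in the high libraries, 2.42 CPM in miR-150 replicate 1 and 0 counts in each control. Alpha-crystallins also act as chaperones that hold damaged proteins in solution. CRYAA had 1221 and 2045 CPM in miR-150 replicates 2 and 3, 5.76 CPM in miR-150 replicate 1, and 6.32, 15.5 and 0 CPM in control replicates 1, 2 and 3.

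Gamma-crystallins are monomers, and fish lenses carry many gamma-M forms. The set held 17 of the 21 crygm2d genes of the table, along with crygmx, crygm2e and both CRYGN genes. The crygm2d gene with the highest smaller CPM of the 2 high libraries, crygm2d13, had 2431 and 2066 CPM in miR-150 replicates 2 and 3, 52.2 CPM in miR-150 replicate 1, and 10.5, 66.1 and 3.64 CPM in the controls. For crygmx the values were 13098 and 25708 CPM in the high libraries, 117 CPM in miR-150 replicate 1, and 39.7, 124 and 8.08 CPM in the controls. In the RefSeq table of assembly GRCz12tu, all 21 crygm2d genes lie in a single stretch of chromosome 9 with no other protein-coding gene between them. They are close copies, so reads may have been split or dropped among them, and their single values are uncertain.

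Not all crystallins met the rule. Of 57 alpha-, beta- and gamma-crystallin genes named in the table, 33 were in the set and 24 were not. Among those 24, 7 reached 5 CPM in both high libraries and missed the 8-fold limit, with folds of 3.32 to 7.81. These were crygm2d6, crygm2d14, crygm2d17, crygm2d20, crygmxl1, crygmxl2 and crygm2f. The other 17 stayed under 5 CPM in at least 1 of the high libraries, and 6 had no count in any library, among them both CRYAB genes. Of the gamma-S genes, crygs3, crygs4 and both CRYGS genes, none passed 2.80 CPM in either high library. CRYAA was thus the only alpha-crystallin gene with reads, and no gamma-S gene was in the set.

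Membrane and junction proteins of the lens fibre made up a second block of 10 genes. MIP, also called aquaporin 0, is the main membrane protein of the fibre cell. Its copy ENSDARG00000013963 had 3698 and 8197 CPM in miR-150 replicates 2 and 3, 95.5 CPM in miR-150 replicate 1, and 0.778, 13.1 and 2.37 CPM in control replicates 1, 2 and 3. The other copy, ENSDARG00000037285, had 2821 and 6609.7 CPM in the high libraries, 90.4 CPM in miR-150 replicate 1, and 4.43, 21.9 and 0 CPM in the controls. For both copies, miR-150 replicate 1 stood above each control, and all 4 of these libraries stood far below replicates 2 and 3.

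LIM2, an integral membrane protein of fibre junctions, was present as 4 genes. The highest, ENSDARG00000015445, had 2842 and 3407 CPM in the high libraries, 26.4 CPM in miR-150 replicate 1, and 5.35, 9.02 and 0.692 CPM in the controls. The related lim2.1 and lim2.3 had 849 and 782 CPM in replicate 2 and 1393 and 1303 CPM in replicate 3, and no other library passed 7.61 CPM. Gap junction proteins of the lens in the set included GJA3 and GJE1. GJA3 had 56.1 and 75.5 CPM in the high libraries, 0.231 CPM in miR-150 replicate 1 and 0 counts in all 3 controls. GJE1 had 356 and 357 CPM in replicates 2 and 3, 2.82 CPM in miR-150 replicate 1, and 0, 7.32 and 0 CPM in the controls.

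**Figure D2:**
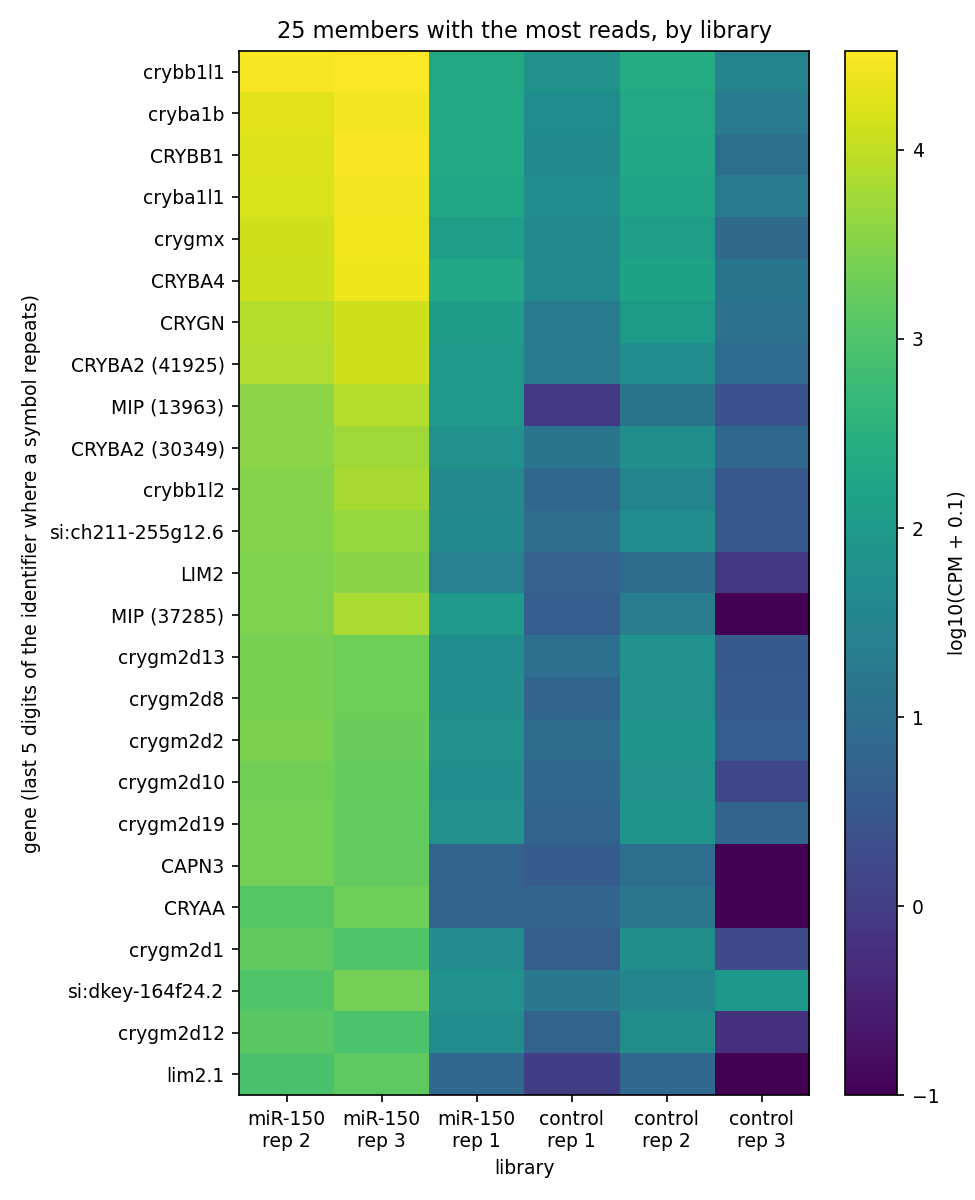
Values of log10(CPM + 0.1) for the 25 genes of the set with the most reads (rows, ordered by the smaller CPM of miR-150 replicates 2 and 3) in the 6 libraries (columns). The first row, crybb1l1, reaches 29646 and 33448 CPM in the left columns, and control replicate 3 is at 0 CPM for CAPN3, CRYAA, lim2.1 and a copy of MIP.

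Other genes known from lens fibres followed. BFSP1, the beaded filament protein filensin, had 351 and 176 CPM in miR-150 replicates 2 and 3, 3.00 CPM in miR-150 replicate 1, and 1.41, 1.23 and 0.692 CPM in the controls. Its partner BFSP2 had 154 and 132 CPM in the high libraries and just missed the limit, because control replicate 2 had 18.2 CPM. CAPN3, a calpain protease with lens-specific forms in rodents, had 2293 and 1594 CPM in the high libraries, 5.71 CPM in miR-150 replicate 1, and 4.04, 9.94 and 0 CPM in the controls. GRIFIN, a galectin-related lens protein, had 464 and 1606 CPM in replicates 2 and 3, and 5.20 CPM in control replicate 1, with 0 counts in the other 3 libraries.

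LCTL, a klotho-family protein of the mouse lens, was present as a pair of genes. The higher had 596 and 283 CPM in miR-150 replicates 2 and 3, 3.80 CPM in miR-150 replicate 1, and 0, 4.09 and 0 CPM in the controls. TDRD7, an RNA granule protein whose loss gives cataract in humans and mice, had 187 and 189 CPM in the high libraries, 10.5 CPM in miR-150 replicate 1, and 4.43, 1.93 and 11 CPM in the controls. Periaxin (prx), a membrane scaffold of myelin that is also known from mouse lens fibres, had 169.9 and 281 CPM in replicates 2 and 3 and at most 14.3 CPM elsewhere.

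Transcription factors were fewer and lower. PROX2, a homeobox gene related to the fibre regulator PROX1, had 208 and 324 CPM in miR-150 replicates 2 and 3, 1.21 CPM in miR-150 replicate 1, and 0.584, 0 and 0.866 CPM in the controls. SOX1 ENSDARG00000008131, whose mouse counterpart drives gamma-crystallin genes, had 61.1 and 196 CPM in the high libraries, 3.98 CPM in miR-150 replicate 1, and 0, 0.385 and 0 CPM in the controls. SOX21 and SALL1 had 33.7 and 19.8 CPM in replicate 2 and 72.3 and 33.9 CPM in replicate 3. A list of lens regulators, written after the names were seen, held 11 genes in the table, of which these PROX2 and SOX1 genes were in the set.

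The other regulators were mostly low. The lens gene pitx3 had 36.3 and 163 CPM in miR-150 replicates 2 and 3, against 6.34 CPM in miR-150 replicate 1 and 2.43, 1.00 and 2.60 CPM in the controls, a fold of 5.73. PROX1 had 74.9 and 104 CPM in the high libraries, 15.3 CPM in miR-150 replicate 1, and 2.92, 11.8 and 25.8 CPM in the controls. HSF4 had 10.7 and 0.241 CPM in replicates 2 and 3 and 0 counts in the other libraries. The lens epithelium gene foxe3 had 0 counts in replicates 2 and 3 and in miR-150 replicate 1, and 2.85 CPM in control replicate 2, the only library with reads. Both PAX6 genes lay between 2.26 and 12.8 CPM in replicates 2 and 3, overlapping the 3.31 to 16.7 CPM of the other libraries. The other copy of SOX1 had 4.92 and 40.7 CPM in replicates 2 and 3 and at most 1.90 CPM elsewhere. MAF ENSDARG00000015890, of a family that drives crystallin genes, had 13.8 and 34.5 CPM in the high libraries and at most 12.3 CPM elsewhere, and its copy ENSDARG00000076520 had 2.80 and 11.4 CPM against at most 5.36 CPM. Of the 11 genes, 7 were higher in both high libraries than in any other, and foxe3, both PAX6 genes and the second MAF gene were not. The 7 include the PROX2 and SOX1 genes chosen by the rule. They also include HSF4, whose 0.241 CPM in replicate 3 is near the 0.181 CPM of 3 counts there. The same share over all genes was not computed, so nothing is read from the 7.

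A further block of 9 genes belongs to amino acid and nitrogen metabolism. ALDH18A1, which starts proline and ornithine synthesis from glutamate, had 809 and 697 CPM in miR-150 replicates 2 and 3, 25.2 CPM in miR-150 replicate 1, and 16.7, 9.94 and 25.3 CPM in the controls. Enzymes of the urea cycle, which in mammals is a liver pathway, appeared from NAGS to ASS1. NAGS, which makes the activator of CPS1, had 83.4 and 76.7 CPM in the high libraries, 0.634 CPM in miR-150 replicate 1 and 0 counts in each control. CPS1 itself, the entry step for ammonia, had 124 and 86.2 CPM, against 1.90 CPM in miR-150 replicate 1 and 0 counts in each control.

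OTC, which joins carbamoyl phosphate to ornithine, had 241 and 501 CPM in miR-150 replicates 2 and 3, 27.8 CPM in miR-150 replicate 1, and 6.52, 17.7 and 16.7 CPM in the controls. ASS1, which makes argininosuccinate, had 86.4 and 105 CPM in the high libraries, 8.47 CPM in miR-150 replicate 1, and 0.486, 0.154 and 6.17 CPM in the controls. The steps after ASS1 did not share this pattern: ASL had 9.57 and 4.39 CPM in the high libraries and 1.90 to 7.38 CPM in the others. ARG1 had no count in any library. ARG2 had 71.2 and 51.1 CPM in replicates 2 and 3, 21.2 CPM in miR-150 replicate 1, and 8.32, 88.5 and 103 CPM in the controls. So 4 of the 7 urea cycle genes looked up were in the set, those upstream of argininosuccinate. This list too was written after the names were seen.

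The same block held ASNS, the asparagine synthetase, at 101 and 124 CPM in the high libraries and at most 9.91 CPM elsewhere. It also held CTH, tdh2 and SFXN1, the mitochondrial serine carrier. Serine synthesis genes were looked up beside them: PHGDH had 103 and 177 CPM in replicates 2 and 3, 34.1 CPM in miR-150 replicate 1, and 3.50, 10.1 and 16.4 CPM in the controls, a fold of 3.03. PSAT1 and PSPH reached folds of 1.47 and 1.85, so none of the 3 serine synthesis genes was in the set. All 3 were higher in both high libraries than in any other. The same share over all genes was not computed, so nothing is read from this.

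Of the 110 named genes, 51 are known from the lens, 33 of them crystallins. The other 59 were not placed in the lens, PROX2 among them although it is on the list of regulators above. They were not sorted by any other tissue, and are called unplaced below. Those 59 and the 4 unnamed genes summed to 9807 and 15164 CPM in miR-150 replicates 2 and 3, 340.3 CPM in miR-150 replicate 1, and 92.3, 216 and 258 CPM in the controls. The largest of them, si:ch211-255g12.6, had 3176 and 4418 CPM in the high libraries, 41.3 CPM in miR-150 replicate 1, and 9.48, 51.9 and 3.23 CPM in the controls. The RefSeq table lists it as a long noncoding RNA, as it does 3 more of the 63 genes of the set whose symbol it holds once. One of these, si:ch211-152c2.3, had 511 and 1566 CPM in replicates 2 and 3, 46.9 CPM in miR-150 replicate 1, and 3.55, 15.5 and 44.8 CPM in the controls.

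Some unplaced genes had few or no reads elsewhere. All 4 other libraries had 0 counts for 8 genes of the set. Among these, tspan33b, a tetraspanin, had 55.3 and 70.6 CPM in miR-150 replicates 2 and 3, at least 239-fold higher than 3 counts in the smallest of the other libraries. The unplaced gene tubb6, a beta-tubulin, had 321 and 373 CPM in the high libraries, 0.749 CPM in miR-150 replicate 1 and 0 counts in each control. Further unplaced genes were xirp1, an actin-binding protein of striated muscle, KIF1A, a neuronal motor, and cntn1a, a neural adhesion protein at 77.5 and 84.9 CPM in replicates 2 and 3 and 5.42 to 9.40 CPM elsewhere.

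The limit of 8 cut through a continuous range. Just inside it lay ENSDARG00000054584, crygm2d9 and ENSDARG00000110151, with folds of 8.05, 8.17 and 8.17. Just outside lay NAP1L1, crygm2d6 and si:ch211-69l10.2, with folds of 7.95, 7.81 and 7.67. NAP1L1, a histone chaperone, had 1057 and 1055 CPM in miR-150 replicates 2 and 3, against 89.6 CPM in miR-150 replicate 1 and 133, 104 and 106 CPM in the controls. Between 4 and 8 times there were 61 more genes.

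Replicates 2 and 3 can be set against each other, since the rule used the smaller of them and not their ratio. Over the 114 genes the median log2 ratio of CPM, replicate 3 over replicate 2, was 0.42, with a range of -1.21 to 1.99, and 77 genes were higher in replicate 3. Among 7670 other genes with at least 5 CPM in both, the median was 0.02 and 50.5% were higher in replicate 3. With 1 library on each side this has no replicate check.

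Within the set, the crystallins divided by family. All 11 beta-crystallins of the set were higher in replicate 3, with a median log2 ratio of 0.71 and a range of 0.17 to 1.02. The 4 other gamma-crystallins, CRYAA and the 10 membrane and junction genes were higher in replicate 3 as well, at medians of 0.83, 0.74 and 0.73. The crygm2d genes went the other way: all 17 in the set were lower in replicate 3, with a median of -0.55 and a range of -0.93 to -0.24. All 21 crygm2d genes in the table were lower, with a median of -0.62. Outside the set the other families did not keep to this division. Of the other gamma-crystallins with at least 5 CPM in both libraries, crygmxl2 had 252 CPM in replicate 3 and 514 CPM in replicate 2, crygmxl1 had 7.52 CPM in replicate 3 and 24.4 CPM in replicate 2, and crygm2f had 8.97 CPM in replicate 3 and 10 CPM in replicate 2. All 3 were lower in replicate 3. Crystallins that reached 5 CPM in replicate 2 or in replicate 3 but not in both were mixed. The beta-crystallin CRYBB2 was lower in replicate 3, at 0.542 CPM, against 7.77 CPM in replicate 2. The gamma-crystallins crygm3 and crygm2b were higher in replicate 3, at 11.3 and 7.4 CPM, against 2.66 and 0.497 CPM in replicate 2. With TMM-scaled CPM (edgeR's trimmed mean normalisation), the crygm2d genes in the set ranged from -0.88 to -0.18 and the beta-crystallins from 0.23 to 1.08. This scaling moves every log2 ratio by the same small amount, so it is no separate check of the directions.

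The 9 genes of transcription and RNA were also all higher in replicate 3, at a median of 0.78. Cytoskeleton genes were mixed, with 4 higher and 4 lower, and BFSP1 was the lowest at a log2 ratio of -1.0. Of the 9 genes of amino acid metabolism, 6 were higher and 3 lower. The counts of crygm2d genes over those of beta-crystallins came to 0.188 in replicate 2 and 0.0890 in replicate 3.

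**Figure D3:**
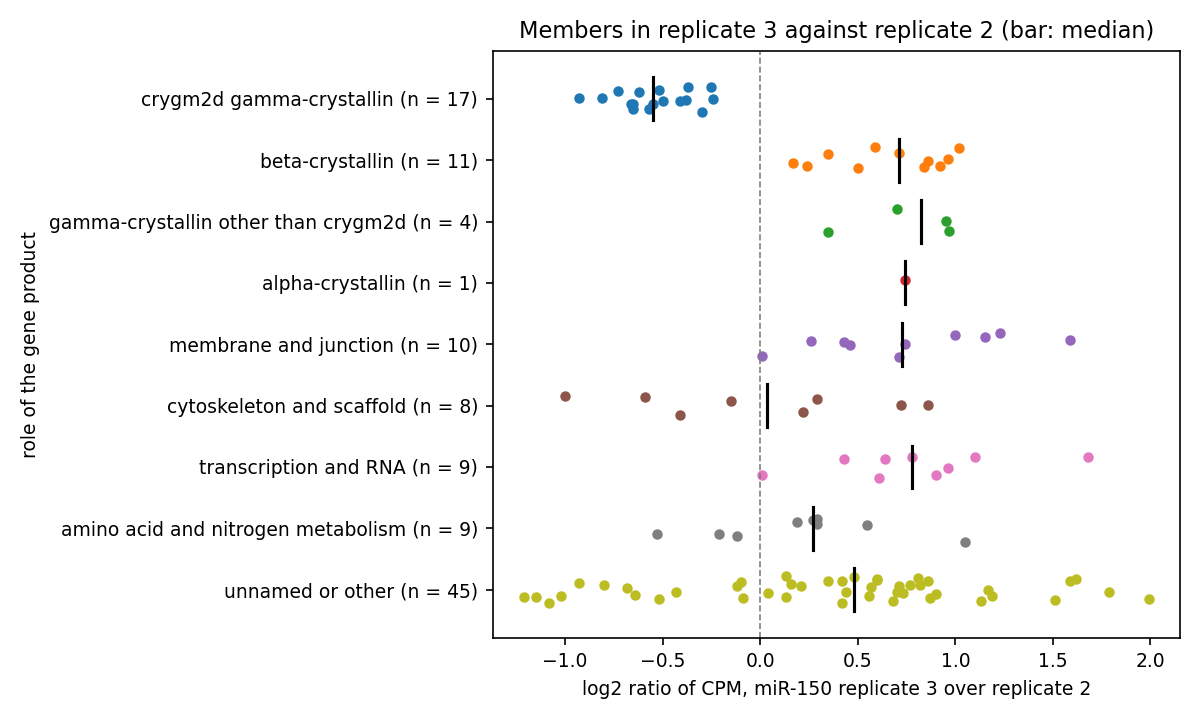
Log2 ratio of CPM in miR-150 replicate 3 over replicate 2 for each of the 114 genes (points), grouped by role of the gene product; vertical bars are medians. The 17 crygm2d points lie below 0, between -0.93 and -0.24, and the 11 beta-crystallin points above it, between 0.17 and 1.02.

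Order within the set was much the same in replicates 2 and 3, with a Spearman rho of 0.97 over the 114 genes. Genes are not independent replicates, and the libraries share transcript lengths and near-identical copies. Against replicate 2 the rho was 0.87 for miR-150 replicate 1 and 0.76, 0.83 and 0.50 for control replicates 1, 2 and 3. The rule capped each low value by the same gene's smaller value in replicates 2 and 3, so part of this likeness comes from the choice. Nothing is read from the closer order of miR-150 replicate 1 and control replicates 1 and 2. Control replicate 3 stood apart, with 40.8% of its 7660 counts in the 45 genes grouped as unnamed or other. These counts were mainly of si:dkey-164f24.2 at 87.9 CPM and si:ch211-152c2.3 at 44.8 CPM.

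Proportions within the set differed between libraries. Counts of crygm2d genes over beta-crystallins came to 0.471 for miR-150 replicate 1 and 0.234, 0.600 and 0.317 for the controls by number, each above both high libraries. Membrane and junction genes over beta-crystallins came to 0.111 and 0.136 for the 2 high libraries, 0.191 for miR-150 replicate 1, and 0.0510, 0.0603 and 0.0273 in the controls. The 10 membrane and junction genes summed to 246 CPM in miR-150 replicate 1 and to 14.8, 68.2 and 3.06 CPM in the controls. They had 304 and 53 counts in control replicates 1 and 3, so their ratios there rest on few reads. The 17 crygm2d genes summed to 608 CPM in miR-150 replicate 1 and to 68.0, 679 and 35.5 CPM in the controls, so control replicate 2 was above miR-150 replicate 1 for these but not for the membrane genes.

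Across the set, miR-150 replicate 1 was above all 3 controls for 57 of the 114 genes, or 50%, where the same held for 30.9% of the 15722 genes tested. By role this was 10 of 11 beta-crystallins, 8 of 10 membrane and junction genes and 4 of 17 crygm2d genes. Control replicate 2 was the highest of the 4 low libraries for 32 of the 114 genes, 13 of them crygm2d. The 32 are a share near the 25.7% found over the genes tested, so nothing is read from them. Of the 114, 17 were not among the genes tested. The rule capped these libraries, and 1 library against 3 has no replicate check.

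Of 18 cell type marker lists, only the lens list had genes in the set. It had 17 of its 18 symbols in the name table, as 19 genes, and 15 of these were in the set. The other 4 were crygm3, BFSP2 and the CRYAB genes, the last with no count in any library. The lens list summed to 118861 and 182265 CPM in miR-150 replicates 2 and 3 and to 1546 CPM in miR-150 replicate 1. Control replicates 1, 2 and 3 had 309, 1295 and 119 CPM. With 15 of its 19 genes in the set, this gap follows from the choice of genes and is no separate support.

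The retina list, the only other eye list, had no gene in the set. Its 22 genes summed to 44.8 and 193 CPM in the 2 high libraries and to 81.4 CPM in miR-150 replicate 1. The controls had 22.7, 222 and 32.4 CPM, so the groups overlapped. Single genes varied. RPE65 ENSDARG00000007480 had 18.4 and 85.0 CPM in replicates 2 and 3 and at most 12.4 CPM elsewhere. ARR3 ENSDARG00000098475 had 1.58 and 5.24 CPM in replicates 2 and 3 and 55.2 CPM in control replicate 2. The liver list summed to 61.5 and 336 CPM in the high libraries, against 1045 CPM in miR-150 replicate 1 and 90.0, 919 and 5232 CPM in the controls. The skeletal muscle list came to 1659 and 1613 CPM in replicates 2 and 3 and to 1176 to 3416 CPM in the others. Epidermal genes came to 7403 and 3443 CPM in the high libraries and to 772 to 22037 CPM elsewhere. The exocrine pancreas list was highest in replicate 2 at 1294 CPM, with 111 CPM in replicate 3 and 64.5 to 311 CPM in the other libraries. The part of these other tissues in the pattern of the 114 genes was not tested.

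**Figure D4:**
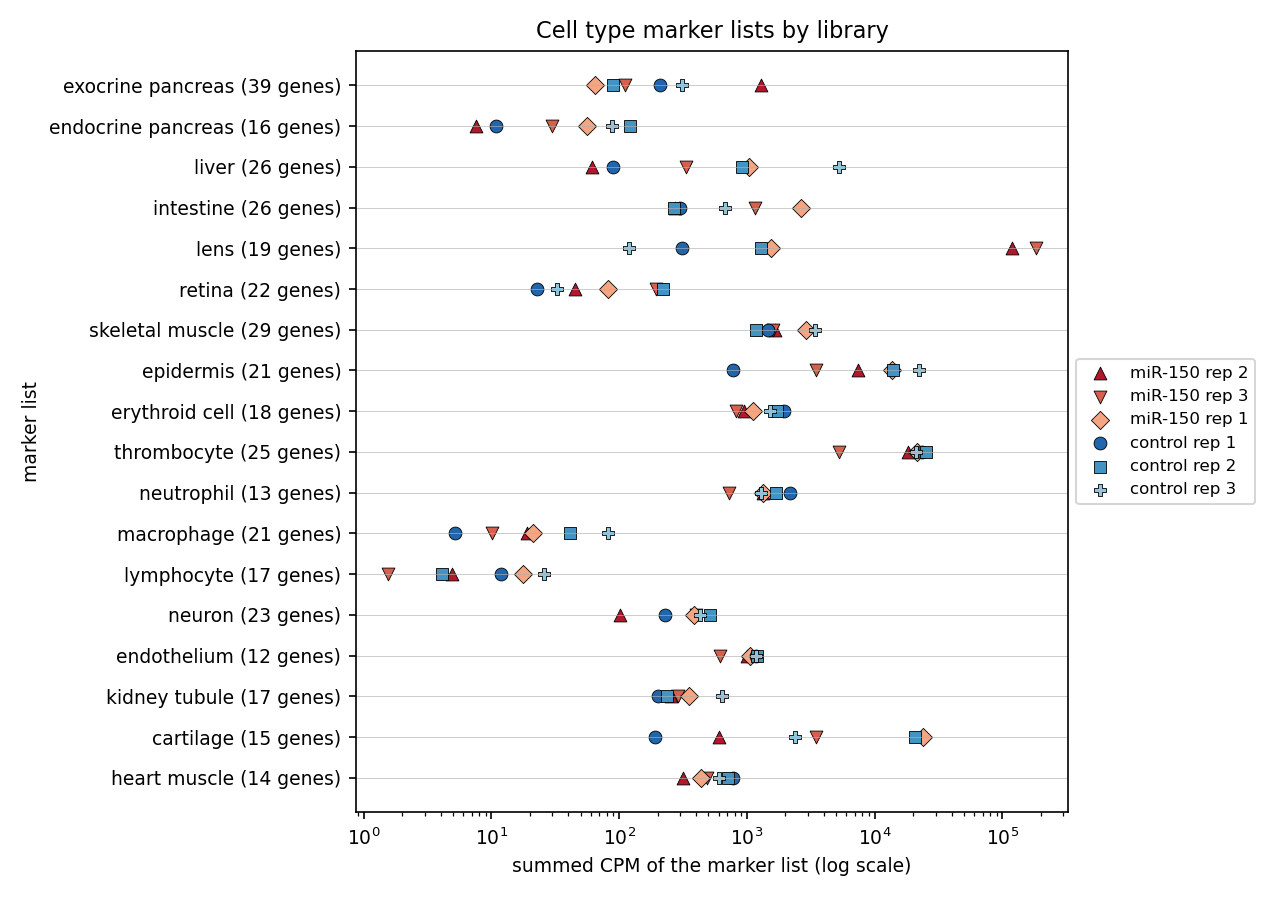
Summed CPM (log scale) of 18 cell type marker lists in the 6 libraries; each point is a library, and the number of genes matched is beside each list name. The lens list stands at 118861 and 182265 CPM in miR-150 replicates 2 and 3 and at or below 1546 CPM in the other libraries. Of its 19 genes, 15 are in the set, so this gap follows from the choice of genes.

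In the comparison of the genotypes across all genes, edgeR's quasi-likelihood test with Benjamini-Hochberg adjustment called 0 of 15722 genes (0%), and so 0 of the 97 genes of the set that passed its filter on low counts. The other 17 did not pass. The smallest adjusted p over all genes was 0.758, and 855 genes had an unadjusted p below 0.05, 725 of them higher in miR-150 libraries. At an unadjusted p below 0.05, edgeR had 90 of the 97 genes, all higher in miR-150 libraries, where 4.61% of all genes tested reached that level and were higher. The DESeq2 Wald test called 254 of 15127 genes at an adjusted p below 0.05, among them 70 of the 97 genes of the set. Of all genes it tested, 229 or 1.51% were called higher. The set was chosen on 2 of the 3 miR-150 libraries, so nothing is read from these counts.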

How the data were processed

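The authors deposited unnormalized counts as 1 table, with Ensembl genes in rows and 6 libraries in columns, and all columns were used. Per the labels' protocols, RNA came from sorted cells and libraries were made with a SMARTer ultra-low input kit and Nextera XT. The submitters' processing notes name STAR 2.7.10b, HTSeq 0.11.3, edgeR 1.34.1 and build GRCz11, with no role given. The annotation release, use of strand and handling of PCR duplicates are not given in the sources used here. Intervals and floors (3 counts) therefore cover counting error only. The sample titles call the libraries biological replicates. The p-values measure the spread between these libraries, which may also be technical.

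CPM was the count over the column total. Symbols came from a table of Ensembl identifiers that named 29201 of 32520 genes. Marker lists were matched by symbol, then without regard to letter case, then without a copy suffix; matching rules and role groups were set after the names were seen. The genes and lists were chosen with earlier results of these data known. The genes named are the 25 with the most reads in the smaller of miR-150 replicates 2 and 3, those on a marker list and the 3 nearest to either side of the 8-fold limit; others were named after their values were seen. The genotype test used edgeR 4.0.16 under R 4.3.3 (filterByExpr, TMM, glmQLFit, glmQLFTest) on all libraries, and with DESeq2 1.42.0 on the same genes. The edgeR script was tested on simulated data. Not every gene of the set is named.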

Additional observations from a re-analysis of the deposited data

How the results depend on the processing

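Within 1.5 times of 114, the number of genes in the set was 78 at a limit of 16 times, 148 at a minimum of 1 CPM, 80 at 50 CPM, 138 with TMM-scaled CPM and 106 with at least 1 count elsewhere, the last chosen after seeing the data. It was 175 at a limit of 4 times. With a library left out of the choice it ranged from 117 without control replicate 1 to 262 without miR-150 replicate 2. Leaving a library out only loosens the rule, so each such set held all 114 by construction. The size and share of counts of such a set cannot fall. The set's share of counts in miR-150 replicates 2 and 3 was 14.9% and 23.2% without crybb1l1, 17.0% and 25.6% at 16 times, and 18.6% and 27.4% at 4 times. With a library left out it ranged from 18.0% to 18.2% in replicate 2 and from 26.7% to 27.6% in replicate 3. The median log2 ratio of replicate 3 over replicate 2 was 0.32 at 50 CPM and 0.48 with TMM. The percentage of the set with miR-150 replicate 1 above all controls was 57.5% at 50 CPM and 50.9% with TMM. DESeq2 called 254 of 15127 genes, among them 70 of the 97 genes of the set that it tested. Why it differed from edgeR was not tested. The set was chosen on these libraries, so nothing is read from the 70. Calls by edgeR were 0 with DESeq2 size factors, with no filter, with each library left out (0 to 0) and with the replicate number as a block (replicate block, 0 calls). Same-numbered libraries deviated from their group means with correlations of -0.19, -0.10 and -0.038. These gave no sign of pairing by number, but whether the libraries were paired cannot be told from them.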

Other observations

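Among the 61 genes between 4 and 8 times, several are known from the lens or its disorders: BFSP2, pitx3, 4 crygm2d genes, crygmxl1, crygmxl2 and NHS, the gene of Nance-Horan syndrome with congenital cataract in humans, at 28.7 and 24.7 CPM in miR-150 replicates 2 and 3, 5.71 CPM in miR-150 replicate 1, and 0, 0 and 5.02 CPM in the controls. Importin genes stood there too: IPO5 had 268 and 515 CPM in replicates 2 and 3 and 18.5 to 45.7 CPM elsewhere, and ipo4 and IPO9 reached folds of 5.57 and 4.09. Genes of other marker lists lay in this range as well. The erythroid gene hbae3 had 34.9 and 179 CPM in replicates 2 and 3 and at most 5.88 CPM elsewhere. The endothelial gene plvapb had 54.3 and 169 CPM in replicates 2 and 3 and at most 13.1 CPM elsewhere. All genes named here were picked from the list after their values were seen.

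A cartilage list showed another pairing of libraries. Its 15 matched genes summed to 603 and 3454 CPM in miR-150 replicates 2 and 3, 23741 CPM in miR-150 replicate 1, and 191, 20750.4 and 2360.1 CPM in control replicates 1, 2 and 3. COL2A1 ENSDARG00000069093, the collagen of cartilage, stood at 10609 CPM in miR-150 replicate 1 and at 9488 CPM in control replicate 2, against at most 1397 CPM in the other libraries. The same 2 libraries had the most crystallin reads outside miR-150 replicates 2 and 3. The cartilage list was picked out after its values were seen, and a link between cartilage and crystallin reads was not tested.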
